A study of Homo sapiens with 14 samples.

Results

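The 32 genes described here make, regulate or export cholesterol and fatty acids. They were followed by RNA sequencing in the human lung adenocarcinoma lines A549 and H1792 after 48 h of AMG900, an inhibitor of the aurora kinases that drive mitosis. The genes were chosen by symbol with earlier results of these data known, so shares of the list are descriptions and not tests. They were 4 regulators, 7 enzymes of the mevalonate arm, 9 enzymes from squalene to cholesterol, 1 sterol transport protein, 8 enzymes of fatty acid synthesis and 3 targets of the liver X receptors (LXRs). All 32 were found among the 26732 genes listed for both lines, and all 32 passed the filter on low counts in every comparison. A549 had 4 libraries from cells given the DMSO vehicle and 4 from cells given 0.1 µM AMG900, and H1792 had 3 of each. Neither line carried an added allele or transgene by its labels. A549 was grown in DMEM and H1792 in RPMI 1640, both with fetal bovine serum, and their counts came in separate tables, so line, medium and table cannot be told apart. The protocol describes 3 replicates for each treatment whereas A549 has 4 libraries a group, and the labels do not say which were separate cultures, so p-values measure the spread between libraries, which may be technical.

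Sterol regulatory element-binding proteins (SREBPs) are membrane-bound transcription factors that raise the genes of lipid synthesis. When membranes hold ample sterol, INSIG proteins keep the SREBP precursors in the endoplasmic reticulum. When sterol falls, SCAP carries the precursors to the Golgi, proteases release the active part, and it binds sterol regulatory elements (SREs) in promoters. *SREBF2* encodes the form that acts mainly on cholesterol synthesis and *SREBF1* the forms that act more on fatty acid synthesis. LXRs, among them the one encoded by *NR1H3*, are switched on by oxysterols and raise *SREBF1* and the cholesterol exporters *ABCA1* and *ABCG1*.

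Promoters were searched for the letters of these elements over the 250 bases before each start site in the RefSeq table (GRCh38.p14), on both strands. For 27 of the 32 genes, 39 start sites in all were searched, and *SQLE*, *FDFT1*, *ACAT2*, *FASN* and *ABCG1* were not analysed here. The SRE core TCACNCCAC, with at most 1 letter changed, was present before 17 of the 39 start sites (43.6%), in 14 genes, and before 20.9% of all 35116 start sites. The CCAAT box, the element of the factor NF-Y, stood before 23 start sites (59.0%), in 20 genes, against 32% of all. The GC box GGGCGG stood before 33 (84.6%), in 26 genes, against 42.6% of all. These matches are descriptions of letters and not binding sites. The 4 promoters below were chosen after the values were seen. *SREBF2* had the one exact SRE core of the list, which 0.883% of all start sites hold, 133 bases before its start. *ABCA1* had the LXR half-site pair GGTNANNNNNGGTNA, which 0.533% of all start sites hold, on the opposite strand 69 bases before its start. *HMGCS1* held the pair too, before a second start site that is not shown. *TM7SF2* was raised and *HMGCS1* lowered in both lines. Each runs 5′ to 3′ on the gene's strand, and capitals mark the SRE core with at most 1 letter changed, the CCAAT box (also read as ATTGG on the other strand) or the LXR half-site pair. The interval of *SREBF2* is chr22:41832855-41833104 on the plus strand, that of *ABCA1* chr9:104928156-104928405 on the minus strand, that of *TM7SF2* chr11:65111622-65111871 on the plus strand and that of *HMGCS1* chr5:43313413-43313662 on the minus strand.
SREBF2: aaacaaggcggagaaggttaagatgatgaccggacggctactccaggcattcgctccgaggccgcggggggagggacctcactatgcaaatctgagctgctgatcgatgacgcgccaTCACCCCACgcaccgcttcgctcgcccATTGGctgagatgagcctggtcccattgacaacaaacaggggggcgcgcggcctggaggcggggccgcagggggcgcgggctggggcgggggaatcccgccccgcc
ABCA1: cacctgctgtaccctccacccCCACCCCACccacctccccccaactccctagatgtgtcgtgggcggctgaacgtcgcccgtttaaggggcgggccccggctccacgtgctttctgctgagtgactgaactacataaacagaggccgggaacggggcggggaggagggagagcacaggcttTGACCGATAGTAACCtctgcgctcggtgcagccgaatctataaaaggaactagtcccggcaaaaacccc
TM7SF2: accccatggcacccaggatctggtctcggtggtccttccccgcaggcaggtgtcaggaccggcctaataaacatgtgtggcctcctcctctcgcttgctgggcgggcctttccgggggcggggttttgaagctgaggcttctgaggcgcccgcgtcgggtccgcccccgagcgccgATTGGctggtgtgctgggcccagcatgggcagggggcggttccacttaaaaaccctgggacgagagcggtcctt
HMGCS1: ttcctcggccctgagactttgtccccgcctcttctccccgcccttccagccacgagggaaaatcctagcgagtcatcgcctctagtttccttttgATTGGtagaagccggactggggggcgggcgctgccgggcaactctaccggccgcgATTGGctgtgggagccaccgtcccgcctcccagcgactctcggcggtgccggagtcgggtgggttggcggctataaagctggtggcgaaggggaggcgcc

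Total counts per library ran from 4254644 to 16381683 in A549 with DMSO, 10932815 to 18962883 in A549 with AMG900, 42760874 to 65617740 in H1792 with DMSO and 51295049 to 79902934 in H1792 with AMG900. DMSO replicate 1 of A549 had the fewest counts and lay farthest from the median of its group for 23 of the 32 genes. Several results are given with and without it, while the fold differences between the lines in DMSO are given only with it. The count of 23 was not made over all genes, nor was a like count made for H1792. Both lines expressed the epithelial keratins (*KRT7* at 3706 CPM, counts per 1000000 counts of a library, in A549 with DMSO and 1002 in H1792), while the lung lineage markers *NKX2-1*, *SFTPB* and *NAPSA* summed to at most 1.99 CPM in any library. H1792 had little *EPCAM* (3.48 CPM) and *CDH1* (0.697 CPM), and A549 little *EPCAM* (0.287 CPM). The 5 fibroblast markers searched summed to between 3508 and 4477 CPM in H1792 with DMSO and between 2615 and 2694 CPM with AMG900, against 82.9 to 114 CPM and 39.3 to 49.9 CPM in A549. In H1792 with DMSO most of the sum was *COL1A1* (2368 CPM) and *COL1A2* (1399 CPM). There *COL3A1* had 170, *PDGFRB* 11.1 and *LUM* 4.31 CPM. With AMG900 *PDGFRB* was higher in H1792 (13.5 CPM) and the others lower. In A549 the sum was nearly all *COL1A1* (92.9 CPM with DMSO). The 3 endothelial markers summed to at most 16.5 CPM in any library. The part of these markers in the results was not tested. These are bulk libraries, in which a change in which cells are present and a change in RNA per cell cannot be told apart.

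AMG900 changed about as many of the 32 genes in each line, but mostly downwards in H1792 and in both directions in A549. In A549, 15 of the 32 genes were differentially expressed at a false discovery rate of 0.01 by edgeR's quasi-likelihood test (46.9%, against 35.0% of the 13174 genes tested). Of these, 7 were upregulated (17.2% of all genes tested were) and 8 downregulated (17.8% of all). In H1792, 14 were differentially expressed (43.8%, against 35.1% of 15017 genes), 2 of them upregulated (16.2% of all) and 12 downregulated (18.8% of all). The median log2 fold change of the 32 genes was 0.03 in A549 and -0.19 in H1792, beside -0.01 and 0.01 over all genes tested. *TM7SF2* rose in both lines, *HMGCS1*, *SQLE*, *IDI1* and *ACLY* fell in both, and *SREBF1* and *ABCA1* rose in A549 and fell in H1792. No change was called in either line for 10 genes, *FDFT1*, *LSS*, *DHCR7*, *MVD*, *MVK*, *PMVK*, *ACACA*, *FADS1*, *NR1H3* and *MYLIP*. With a 2-fold minimum added, 4 genes were called in A549 (11.1% of all genes tested) and 4 in H1792 (8.37% of all). Without DMSO replicate 1, A549 had 19 genes called (43.5% of all genes tested were, in place of 35.0%), 9 up (21.4% of all) and 10 down (22.1% of all), the 4 added being *FASN* and *FADS1* (up) and *MVK* and *ACACA* (down). When H1792 was fitted without its own DMSO replicate 1, 3047 of all 15180 genes tested were up and 3656 down. With all libraries these were 2439 and 2827 of 15017. The 32 genes had 11 to 16 calls in H1792 when any 1 library was left out.

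**Figure D1:**
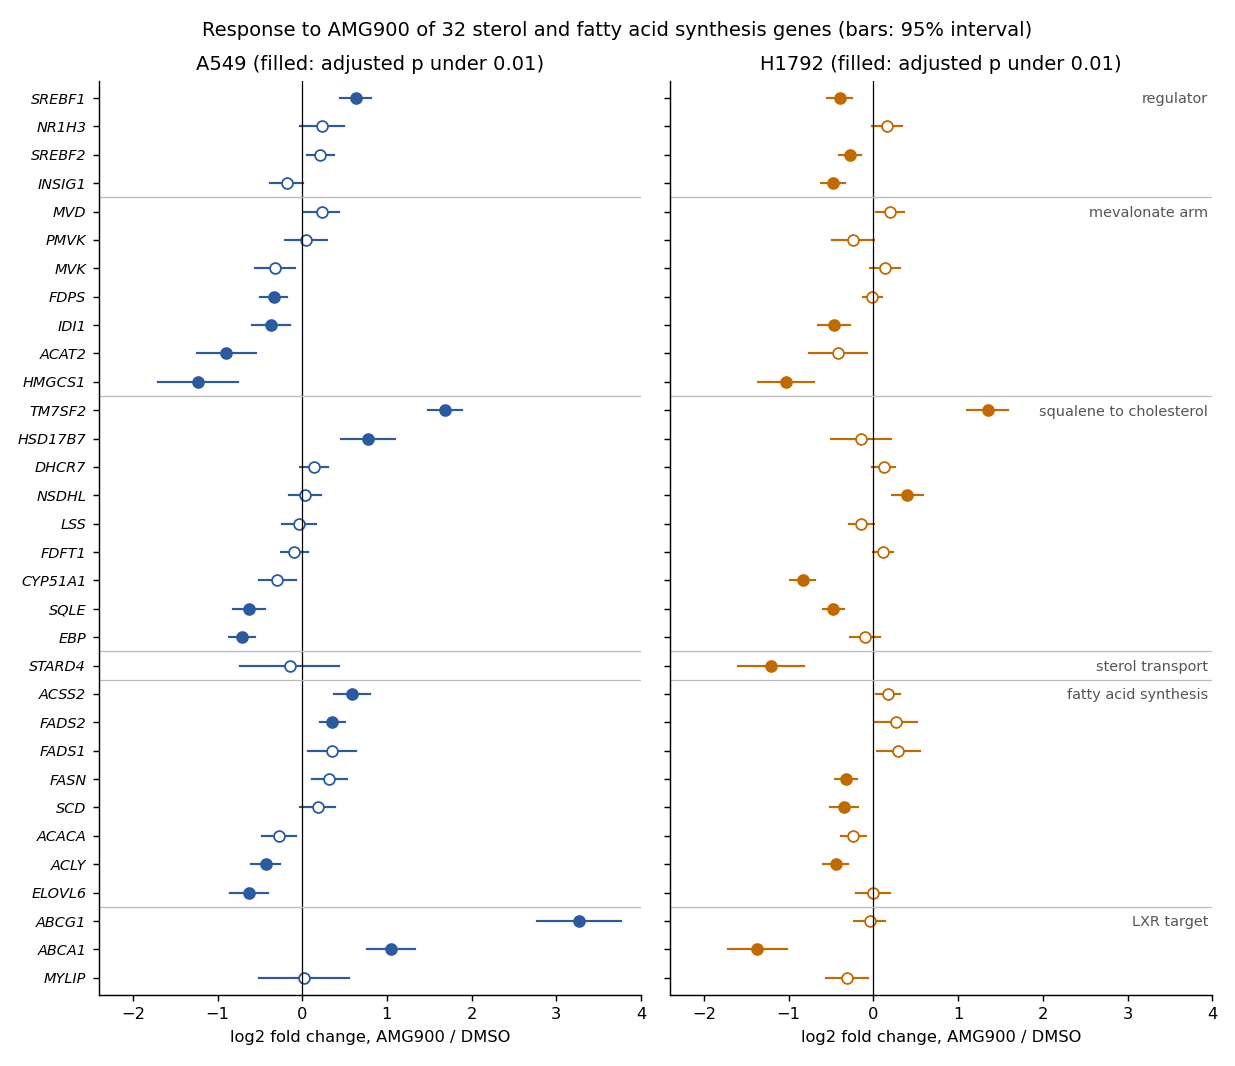
Log2 fold change of AMG900 over DMSO on the x axis for each of the 32 genes, ordered by role, in A549 (left) and H1792 (right). Points are edgeR estimates, bars 95% intervals, and filled points have an adjusted p under 0.01. *ABCG1* and *TM7SF2* lie farthest to the right in A549, and in H1792 12 of the 14 filled points lie left of 0.

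The difference between the lines was tested itself, as the H1792 log2 fold change minus that of A549 in one fit over all 14 libraries. It passed for 11 genes (34.4%, against 14.5% of 14769 genes tested), with the AMG900 effect higher in H1792 for 2 (5.37% of all) and lower for 9 (9.17% of all). The 2 were *EBP* and *ELOVL6*, and the 9 were *ABCG1*, *ABCA1*, *SREBF1*, *HSD17B7*, *FASN*, *CYP51A1*, *SCD*, *SREBF2* and *ACSS2*. The median difference over all genes was -0.10, so the values below are to be read against it. Over all genes the calls divided into 793 higher and 1355 lower, and with DESeq2's size factors they divided into 1012 and 1033, with a median of -0.02. With those size factors 10 of the 32 genes passed (13.8% of all), 2 higher (6.85% of all) and 8 lower (6.99% of all). After a correction for GC content 13 passed (17.0% of all), 5 higher (9.3% of all) and 8 lower (7.66% of all), with a median over all genes of 0.01. With a 2-fold minimum 3 passed (6.17% of all), *ABCG1*, *ABCA1* and *SREBF1*.

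Of the regulators, *SREBF1* rose in A549 and fell in H1792, and *SREBF2* fell in H1792. *SREBF1* (chr17:17713713-17740316, GRCh37, minus strand) had 337, 266, 284 and 268 CPM in the 4 DMSO libraries of A549 and 409, 435, 435 and 505 CPM in the 4 AMG900 libraries. The H1792 controls held 100.3, 84.5 and 93.5 CPM and the treated H1792 libraries 69.8, 71.6 and 69.6 CPM. The groups did not overlap in either line, and the directions were opposite. The change was 1.55-fold up in A549 (log2 0.63 ± 0.0875 SE, edgeR adjusted p 3.97e-05) and 1.32-fold down in H1792 (log2 -0.40 ± 0.0673 SE, edgeR adjusted p 0.000709). H1792 minus A549, the responses differed by -1.11 ± 0.125 (log2, SE, edgeR adjusted p 2.05e-06). *RAI1* overlaps *SREBF1* on the other strand, and whether the counting used strand is not given in the sources used here. After GC correction the rise in A549 was 0.21 (log2, edgeR adjusted p 0.00681) and the fall in H1792 -0.73 (edgeR adjusted p 9.43e-07). The A549 rise of *SREBF1* was called in 15 of the 16 alternative fits, with a highest edgeR adjusted p of 0.0176.

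*SREBF2* (chr22:42229109-42303310, GRCh37, plus strand) had 146, 173, 167 and 172 CPM with DMSO in A549 and 180, 192, 189 and 204 CPM with AMG900. For H1792 the values were 193, 170 and 183 CPM in DMSO and 154, 149 and 148 CPM after AMG900. The treated libraries lay above all controls in A549 and below all controls in H1792. The fall in H1792 was 1.21-fold (log2 -0.28 ± 0.0585 SE, edgeR adjusted p 0.00281), while the A549 value of 0.21 ± 0.0738 did not pass (edgeR adjusted p 0.0278). The lines differed by -0.56 ± 0.105 (log2, SE, edgeR adjusted p 0.000577). The call in H1792 was lost without AMG900 replicate 1, 2 or 3 or DMSO replicate 3, where the edgeR adjusted p lay between 0.0119 and 0.0188. After GC correction the *SREBF2* fall in H1792 was -0.54 (edgeR adjusted p 2.63e-06).

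*INSIG1*, the retention factor and itself an SREBP target, fell 1.39-fold in H1792 from 38.7 ± 1.61 to 27.9 ± 0.714 CPM (SD, n = 3, edgeR adjusted p 0.000186). In A549 it had 73.1 ± 6.70 CPM in DMSO and 63.9 ± 6.10 CPM under AMG900 (SD, n = 4, edgeR adjusted p 0.114), and the groups overlapped. The gap of the lines, -0.37, did not pass (edgeR adjusted p 0.0336), and without A549 DMSO replicate 1 it was -0.42 (edgeR adjusted p 0.00655). *NR1H3*, the gene of LXR alpha, had log2 fold changes of 0.23 in A549 and 0.16 in H1792, and neither passed.

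**Figure D2:**
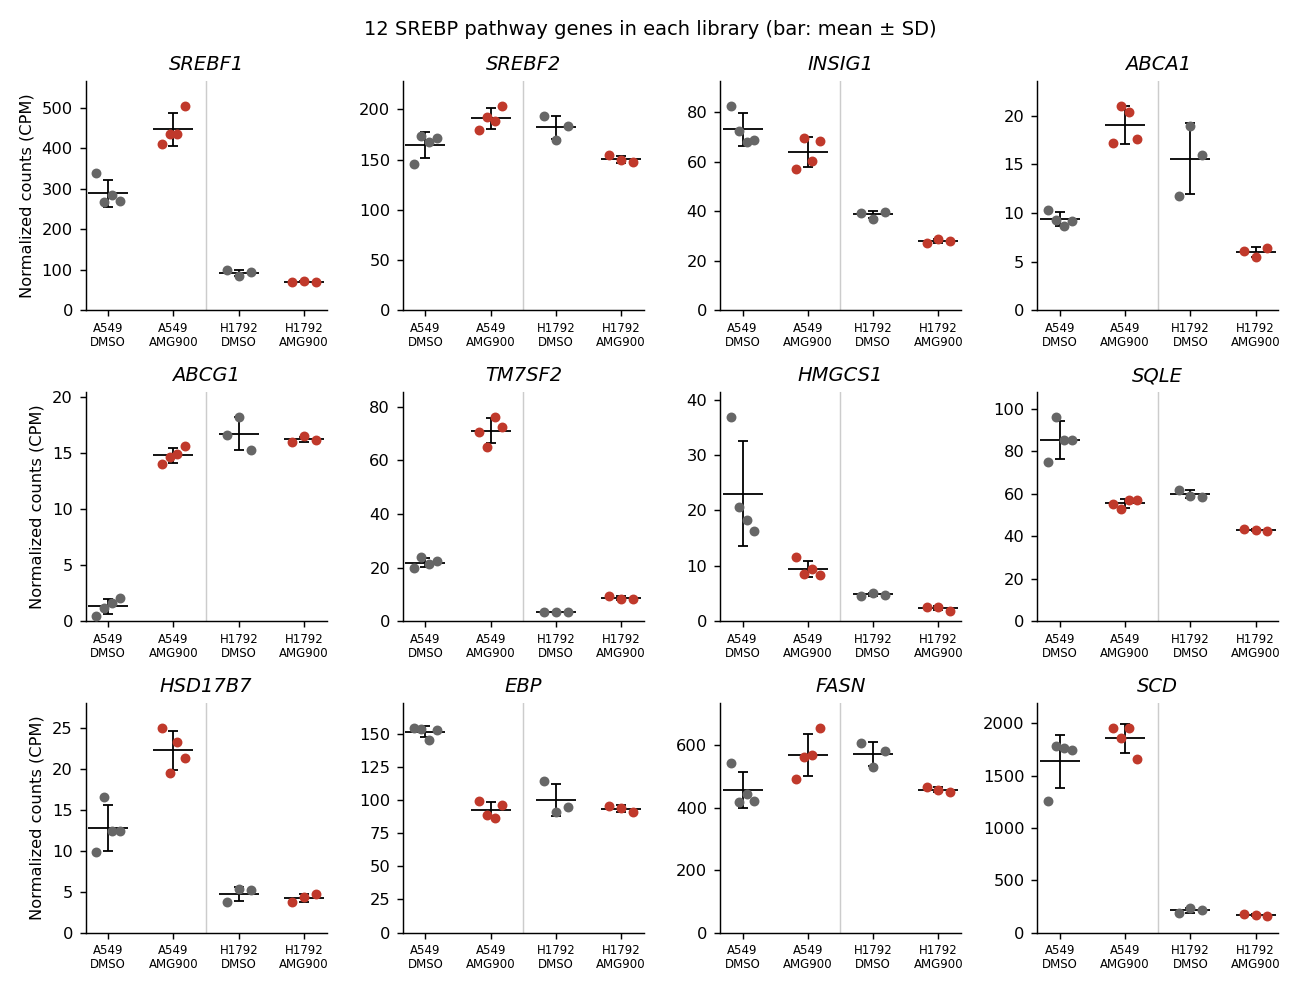
Normalized counts (CPM, y axis, each line scaled on its own) of 12 genes in each library. Points are libraries (grey DMSO, red AMG900), and bars are the mean and SD of 4 A549 or 3 H1792 libraries. *SREBF1* and *ABCA1* move in opposite directions in the 2 lines, *ABCG1* rises from under 2.1 CPM to at least 14 CPM in A549 alone, and *TM7SF2* rises in both.

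The mevalonate arm turns acetyl-CoA into farnesyl diphosphate. In A549, 4 of its 7 genes fell (*HMGCS1*, *ACAT2*, *IDI1*, *FDPS*) and none rose, and in H1792, 2 of 7 fell (*HMGCS1*, *IDI1*) and none rose. Of all genes tested, 17.8% fell and 17.2% rose in A549, and 18.8% fell and 16.2% rose in H1792. The median log2 change of the arm was -0.34 for A549 and -0.24 for H1792. *HMGCS1* encodes the synthase that makes HMG-CoA, and it fell by the largest log2 change of the arm in both lines. Its libraries held 36.9, 20.7, 18.2 and 16.4 CPM with DMSO in A549 and 11.5, 8.49, 9.44 and 8.40 CPM with AMG900. H1792 libraries gave 4.60, 5.19 and 4.86 CPM in DMSO and 2.56, 2.62 and 1.97 CPM under AMG900. No treated library reached a control library, although the highest A549 control, DMSO replicate 1, was well above the other 3. The fall was 2.35-fold in A549 (log2 -1.23 ± 0.221 SE, edgeR adjusted p 0.000361) and 2.05-fold in H1792 (log2 -1.03 ± 0.148 SE, edgeR adjusted p 0.000259). Without DMSO replicate 1 the A549 log2 change of *HMGCS1* was -0.97 (edgeR adjusted p 3.28e-06), short of 2-fold. The responses differed by 0.12, with a 95% interval from -0.50 to 0.74. *HMGCS1*, *SQLE*, *ACLY*, *IDI1* and *STARD4* were chosen for fuller description after their values were seen.

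*ACAT2*, the thiolase at the start of the arm, fell 1.86-fold in A549, from 41.1, 31.9, 29.5 and 24.8 CPM to 21.3, 15.4, 16.8 and 13.8 CPM (edgeR adjusted p 0.000394). In H1792 it had 13.8 ± 0.210 CPM in DMSO and 10.3 ± 2.75 CPM under AMG900 (SD, n = 3), which did not pass (edgeR adjusted p 0.0413). Its 3 treated H1792 libraries held 8.33, 9.12 and 13.4 CPM, and without AMG900 replicate 3 the log2 change was -0.66 (edgeR adjusted p 0.00113) in place of -0.42. *TCP1* and *SOD2* overlap *ACAT2* on the other strand.

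*IDI1*, the isomerase of isopentenyl diphosphate, fell 1.29-fold in A549 (61.6 ± 5.79 to 48.1 ± 5.58 CPM, SD, n = 4, edgeR adjusted p 0.00920). In H1792 it fell 1.39-fold (30.3 ± 3.08 to 21.9 ± 1.13 CPM, SD, n = 3, edgeR adjusted p 0.00117). The A549 call was lost when any one library other than DMSO replicate 1 was left out (edgeR adjusted p 0.0133 to 0.0379). After GC correction *IDI1* was at 0.13 (log2) in A549 and 0.0078 in H1792, and neither passed. *FDPS*, farnesyl diphosphate synthase, fell 1.26-fold in A549 (201 ± 18.0 to 159 ± 5.73 CPM, SD, n = 4, edgeR adjusted p 0.00188, and 0.0103 without DMSO replicate 3), and was 153 ± 5.00 CPM in DMSO and 152 ± 1.25 CPM under AMG900 in H1792 (SD, n = 3). Its pseudogene *FDPSP2* is listed in the tables, so reads may have been divided between them. The kinases and decarboxylase of the arm, *MVK*, *PMVK* and *MVD*, had log2 fold changes between -0.32 and 0.23 in A549 and between -0.24 and 0.20 in H1792, and none passed with all libraries. *MVK* passed in A549 without AMG900 replicate 4 (-0.42, edgeR adjusted p 0.00427) or DMSO replicate 1 (-0.34, edgeR adjusted p 0.00632), and *MVD* in H1792 without DMSO replicate 1 (0.25, edgeR adjusted p 0.00160). After GC correction *MVK* passed in A549 (-0.69, edgeR adjusted p 3.01e-05) and *PMVK* in H1792 (-0.52, edgeR adjusted p 0.000443), and the A549 fall of *FDPS* was -0.54, with a call for *FDPS* in H1792 too (-0.21, edgeR adjusted p 0.00249). The test of the difference between the lines was passed by none of the 7 genes. It was passed by *FDPS* (0.31, edgeR adjusted p 0.00561) without A549 DMSO replicate 1 and by *MVK* (0.50, edgeR adjusted p 0.00891) without A549 AMG900 replicate 4, and by both after GC correction (0.39 for *FDPS* and 0.59 for *MVK*).

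From squalene to cholesterol, 2 of 9 genes rose and 2 fell in each line, and the genes were not the same ones throughout. Beside these counts, 17.2% of all genes tested rose and 17.8% fell in A549, and 16.2% and 18.8% in H1792. *TM7SF2* and *HSD17B7* rose and *SQLE* and *EBP* fell in A549, and *TM7SF2* and *NSDHL* rose and *SQLE* and *CYP51A1* fell in H1792. *TM7SF2* (chr11:64879317-64883856, GRCh37, plus strand) encodes a sterol C14-reductase. It had 19.7, 23.9, 21.5 and 22.6 CPM with DMSO in A549 and 70.7, 65.1, 76.2 and 72.3 CPM with AMG900. The H1792 controls held 3.42, 3.37 and 3.60 CPM and the treated H1792 libraries 9.61, 8.31 and 8.54 CPM. Every treated library lay more than 2-fold above every control of its line. The rise was 3.22-fold in A549 (log2 1.69 ± 0.0949 SE, edgeR adjusted p 3.40e-09) and 2.55-fold in H1792 (log2 1.35 ± 0.109 SE, edgeR adjusted p 9.40e-06). The gap of the lines, -0.41 ± 0.137, did not pass (edgeR adjusted p 0.0359). *VPS51* overlaps *TM7SF2* on the same strand, and reads in the shared part may have been left out or counted on either gene.

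*SQLE* encodes squalene epoxidase, a rate-limiting enzyme of cholesterol synthesis, and fell in both lines. It had 74.7, 96.2, 85.3 and 85.2 CPM with DMSO in A549 and 55.0, 52.7, 57.0 and 57.1 CPM with AMG900. For H1792 the values were 61.9, 58.8 and 58.6 CPM in DMSO and 43.3, 43.1 and 42.7 CPM after AMG900. The groups did not overlap, and the fall was 1.55-fold in A549 (log2 -0.63 ± 0.0865 SE, edgeR adjusted p 3.68e-05) and 1.39-fold in H1792 (log2 -0.47 ± 0.0561 SE, edgeR adjusted p 7.88e-05). The 95% interval of the difference between the lines ran from -0.15 to 0.31.

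*HSD17B7* (chr1:162760492-162782613, GRCh37, plus strand), a 3-keto reductase of sterol demethylation, had 9.87, 16.6, 12.4 and 12.4 CPM with DMSO in A549 and 25.0, 19.5, 23.3 and 21.4 CPM with AMG900. H1792 libraries gave 3.72, 5.34 and 5.17 CPM in DMSO and 3.77, 4.33 and 4.74 CPM under AMG900. The rise in A549 was 1.71-fold (log2 0.77 ± 0.149 SE, edgeR adjusted p 0.000655), and in H1792 the groups overlapped (edgeR adjusted p 0.482). The responses of the lines differed by -0.99 ± 0.228 (log2, SE, edgeR adjusted p 0.00339), and the adjusted p was 0.0151, 0.0111 and 0.0127 by edgeR without H1792 AMG900 replicate 1, DMSO replicate 2 and DMSO replicate 3. The pseudogene *HSD17B7P2* is listed in the tables. *EBP* (chrX:48380187-48387104, GRCh37, plus strand), the sterol isomerase that moves the double bond of the ring, had 154, 153, 145 and 152 CPM with DMSO in A549 and 99.3, 88.7, 86.8 and 95.9 CPM with AMG900. The H1792 controls held 114, 91.1 and 94.6 CPM and the treated H1792 libraries 95.5, 94.1 and 90.6 CPM. *EBP* fell 1.63-fold in A549 (log2 -0.71 ± 0.0712 SE, edgeR adjusted p 1.77e-06), and in H1792 the groups overlapped (log2 -0.10, edgeR adjusted p 0.333), where GC correction gave a call of -0.27 (edgeR adjusted p 0.00409). The lines differed by 0.53 ± 0.110 (log2, SE, edgeR adjusted p 0.00138).

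*CYP51A1* (chr7:91714301-91764117, GRCh37, minus strand), lanosterol demethylase, had 63.9, 54.2, 48.1 and 51.4 CPM with DMSO in A549 and 41.9, 48.3, 44.1 and 41.4 CPM with AMG900. For H1792 the values were 31.5, 31.2 and 32.8 CPM in DMSO and 18.0, 18.3 and 17.3 CPM after AMG900. The groups stood clear of each other in H1792, where it fell 1.78-fold (log2 -0.83 ± 0.0672 SE, edgeR adjusted p 9.22e-06), and overlapped in A549 (log2 -0.30 ± 0.101 SE, edgeR adjusted p 0.0256). The difference was -0.62 ± 0.125 (log2, SE, edgeR adjusted p 0.00125). After GC correction the H1792 fall of *CYP51A1* was -0.54 (edgeR adjusted p 0.000132). *AKAP9* and an antisense RNA overlap *CYP51A1* on the other strand. *NSDHL*, the sterol dehydrogenase that works beside HSD17B7, rose 1.32-fold in H1792, from 31.4, 39.4 and 32.8 CPM to 45.4, 46.6 and 44.9 CPM (edgeR adjusted p 0.00271). Without AMG900 replicate 1, 2 or 3 or DMSO replicate 3 the edgeR adjusted p of *NSDHL* lay between 0.0123 and 0.0178. In A549 *NSDHL* had 84.2 ± 9.10 CPM in DMSO and 86.6 ± 5.88 CPM under AMG900 (SD, n = 4). The difference of *NSDHL* between the lines, 0.30, did not pass (edgeR adjusted p 0.103) and was 0.39 after GC correction (edgeR adjusted p 0.00906). *FDFT1*, *LSS* and *DHCR7*, the genes of squalene synthase, lanosterol synthase and the last reductase, had log2 fold changes between -0.15 and 0.14 over both lines and did not pass. After GC correction *LSS* passed in both lines (-0.34 in A549, edgeR adjusted p 0.00379, and -0.41 in H1792, edgeR adjusted p 0.000313), as did *FDFT1* in H1792 (0.18, edgeR adjusted p 0.00501).

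*STARD4*, which carries cholesterol between membranes, fell 2.30-fold in H1792, from 2.66, 3.20 and 3.19 CPM to 1.38, 1.40 and 1.14 CPM (log2 -1.20 ± 0.176 SE, edgeR adjusted p 0.000291). After GC correction the change was -0.46 and did not pass (edgeR adjusted p 0.0361). In A549, with only 10 to 63 counts a library, *STARD4* had 2.91 ± 0.525 CPM in DMSO and 2.69 ± 0.696 CPM under AMG900 (SD, n = 4). The 95% interval of the A549 log2 change ran from -0.73 to 0.43, and the difference between the lines, -1.12, did not pass (edgeR adjusted p 0.016), though it did without A549 AMG900 replicate 4 (-1.28, edgeR adjusted p 0.00496). *STARD4-AS1* overlaps it on the other strand.

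Among the 8 genes of acetyl-CoA supply, fatty acid synthesis and desaturation, 2 rose (*ACSS2*, *FADS2*) and 2 fell (*ACLY*, *ELOVL6*) in A549, and 3 fell (*ACLY*, *FASN*, *SCD*) and none rose in H1792. The shares over all genes tested were 17.2% up and 17.8% down in A549, and 16.2% up and 18.8% down in H1792. *FASN* (chr17:80036214-80056170, GRCh37, minus strand) encodes fatty acid synthase. It had 543, 419, 444 and 421 CPM with DMSO in A549 and 491, 563, 568 and 656 CPM with AMG900. H1792 libraries gave 607, 531 and 581 CPM in DMSO and 466, 457 and 449 CPM under AMG900. The groups overlapped in A549, through DMSO replicate 1, and not in H1792. *FASN* fell 1.25-fold in H1792 (log2 -0.32 ± 0.0572 SE, edgeR adjusted p 0.000946) and was at -0.67 (log2) after GC correction (edgeR adjusted p 1.19e-06). In A549 the change was 0.32 ± 0.0969 (edgeR adjusted p 0.0132), 0.41 without DMSO replicate 1 (edgeR adjusted p 2.34e-05), 0.38 without AMG900 replicate 1 (edgeR adjusted p 0.00690), and -0.12 after GC correction (edgeR adjusted p 0.0809). The lines differed by -0.73 ± 0.134 (log2, SE, edgeR adjusted p 0.000534).

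*SCD* (chr10:102106990-102124583, GRCh37, plus strand), the stearoyl-CoA desaturase, had 1257, 1785, 1763 and 1743 CPM with DMSO in A549 and 1958, 1859, 1955 and 1663 CPM with AMG900. The H1792 controls held 189, 232 and 217 CPM and the treated H1792 libraries 173, 167 and 161 CPM. It fell 1.27-fold in H1792 (log2 -0.35 ± 0.0736 SE, edgeR adjusted p 0.00291) and did not pass in A549 (log2 0.18 ± 0.0982 SE, edgeR adjusted p 0.139), where the groups overlapped. The A549 value of *SCD* was 0.074 without DMSO replicate 1 (edgeR adjusted p 0.245) and 0.29 after GC correction (edgeR adjusted p 0.00586). The H1792 call was lost without AMG900 replicate 1, 2 or 3 or DMSO replicate 3 (edgeR adjusted p 0.0114 to 0.0194). The difference of -0.60 ± 0.144 (edgeR adjusted p 0.00451) was lost without A549 AMG900 replicate 1 or 3, any one H1792 AMG900 library, or H1792 DMSO replicate 2 or 3 (edgeR adjusted p 0.0101 to 0.0156).

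*ACSS2* (chr20:33459949-33515765, GRCh37, plus strand) makes acetyl-CoA from acetate. It had 34.3, 36.6, 31.2 and 35.0 CPM with DMSO in A549 and 57.5, 53.1, 49.5 and 46.4 CPM with AMG900. For H1792 the values were 40.5, 43.8 and 40.2 CPM in DMSO and 44.8, 47.3 and 47.8 CPM after AMG900. The groups did not overlap in either line. It rose 1.51-fold in A549 (log2 0.59 ± 0.0982 SE, edgeR adjusted p 0.000200), and the H1792 value of 0.17 ± 0.0631 did not pass (edgeR adjusted p 0.0460). The difference of -0.49 ± 0.116 (edgeR adjusted p 0.00397) was lost without A549 DMSO replicate 3, H1792 AMG900 replicate 1 or 2, or H1792 DMSO replicate 2 (edgeR adjusted p 0.0116 to 0.0178), and also with DESeq2's size factors (0.0135), total counts (0.0220) or GC correction (0.0260). *GGT7* overlaps *ACSS2* on the other strand.

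*ACLY*, ATP citrate lyase, makes acetyl-CoA from citrate and moved the other way to *ACSS2* in A549. *ACLY* had 855, 1146, 1089 and 1088 CPM with DMSO in A549 and 786, 791, 787 and 732 CPM with AMG900. H1792 libraries gave 148, 176 and 160 CPM in DMSO and 116, 121 and 118 CPM under AMG900. The groups did not overlap, and the fall was 1.35-fold in A549 (log2 -0.43 ± 0.0817 SE, edgeR adjusted p 0.000554) and 1.36-fold in H1792 (log2 -0.45 ± 0.0663 SE, edgeR adjusted p 0.000321). The 95% interval of the difference ran from -0.34 to 0.16.

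*ELOVL6* (chr4:110967002-111120355, GRCh37, minus strand), which elongates palmitate, had 47.0, 37.8, 37.4 and 36.3 CPM with DMSO in A549 and 27.4, 24.3, 25.0 and 25.1 CPM with AMG900. The H1792 controls held 26.9, 33.3 and 31.2 CPM and the treated H1792 libraries 32.2, 31.1 and 27.9 CPM. *ELOVL6* fell 1.54-fold in A549 (log2 -0.63 ± 0.107 SE, edgeR adjusted p 0.000240), and in H1792 the groups overlapped (edgeR adjusted p 0.998). After GC correction the A549 fall was -0.25 and did not pass (edgeR adjusted p 0.0533), and the H1792 value was 0.28 (edgeR adjusted p 0.00925). The responses of the lines differed by 0.55 ± 0.140 (edgeR adjusted p 0.00755), and it was lost in 9 of the 14 fits that left out 1 library, with an edgeR adjusted p between 0.0102 and 0.0289. The exceptions were A549 AMG900 replicate 1, A549 DMSO replicates 1 and 4, H1792 AMG900 replicate 3 and H1792 DMSO replicate 2. The desaturase gene *FADS2* rose 1.28-fold in A549 from 882 ± 73.5 to 1131 ± 22.1 CPM (SD, n = 4, edgeR adjusted p 0.000496), and after GC correction the change was 0.022 (edgeR adjusted p 0.784). *FADS1*, its neighbour on the other strand, overlaps *FADS2*, and *FEN1* overlaps *FADS2* on the same strand. With all libraries *FADS1* passed in neither line (0.36 in A549 and 0.29 in H1792), and it passed without A549 DMSO replicate 1 (0.20, edgeR adjusted p 0.00497) and without H1792 DMSO replicate 2 (0.43, edgeR adjusted p 0.00183). *ACACA*, acetyl-CoA carboxylase, had log2 fold changes of -0.28 in A549 and -0.24 in H1792 and passed in neither, but did without DMSO replicate 1 of either line (edgeR adjusted p 0.000102 in A549 and 0.000182 in H1792). *ACACA* also passed in both lines after GC correction (edgeR adjusted p 0.00687 and 0.00399) and with total counts as scaling (edgeR adjusted p 0.00790 and 0.00686), and in H1792 by DESeq2 (adjusted p 0.00462).

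The 2 cholesterol exporters changed most between the lines. *ABCA1* (chr9:107543287-107690436, GRCh37, minus strand) passes cholesterol to lipid-poor apolipoprotein. It had 10.3, 9.29, 8.67 and 9.14 CPM with DMSO in A549 and 17.2, 21.1, 20.4 and 17.6 CPM with AMG900. For H1792 the values were 11.8, 19.0 and 16.0 CPM in DMSO and 6.11, 5.49 and 6.42 CPM after AMG900. The treated libraries lay above all controls in A549 and below all controls in H1792. The rise in A549 was 2.06-fold (log2 1.04 ± 0.132 SE, edgeR adjusted p 1.59e-05) and the fall in H1792 2.59-fold (log2 -1.37 ± 0.158 SE, edgeR adjusted p 6.65e-05). The difference was -2.50 ± 0.209 (log2, SE, edgeR adjusted p 3.39e-08).

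*ABCG1* (chr21:43619799-43717354, GRCh37, plus strand) passes cholesterol to mature lipoprotein particles. It had 0.470, 1.18, 1.64 and 2.08 CPM with DMSO in A549 and 14, 14.7, 14.9 and 15.6 CPM with AMG900. H1792 libraries gave 16.6, 18.2 and 15.3 CPM in DMSO and 16.0, 16.5 and 16.2 CPM under AMG900. On a common scale, mean *ABCG1* was 14.9 CPM in A549 with AMG900, beside 17.1 CPM in H1792 with DMSO and 16.6 CPM with AMG900. A549 with DMSO stood far below at 1.29 CPM, with 2 to 35 counts a library. The rise in A549 was 9.64-fold (log2 3.27 ± 0.232 SE, edgeR adjusted p 4.51e-08), and the H1792 log2 change was -0.04 with a 95% interval from -0.23 to 0.14. The difference was -3.37 ± 0.238 (log2, SE, edgeR adjusted p 2.88e-09). *MYLIP*, an LXR-induced ubiquitin ligase, had 3.37 ± 0.747 CPM in DMSO and 3.53 ± 0.799 CPM under AMG900 in A549 (SD, n = 4), and 7.85 ± 0.297 and 6.32 ± 0.758 CPM in H1792 (SD, n = 3), and passed in neither line. In A549 *MYLIP* had only 11 to 79 counts a library, and the 95% interval of its log2 change ran from -0.51 to 0.56.

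With vehicle alone, the lines differed in most of the list. In DMSO, 28 of the 32 genes differed between H1792 and A549 (87.5%, against 66.1% of 14769 genes tested), 7 higher in H1792 (34.2% of all) and 21 lower (31.9% of all), and the median log2 difference was -0.77, beside 0.04 over all genes. At a minimum of 2-fold, 16 differed (39.2% of all). All 9 genes from squalene to cholesterol were lower in H1792, by log2 -0.42 for *SQLE* to -2.57 for *TM7SF2*. *FADS2* was 69.3-fold lower in H1792 (12.2 ± 0.772 CPM, SD, n = 3, against 844 ± 78.8 CPM in A549, SD, n = 4, on a common scale, edgeR adjusted p 2.14e-19). *FADS1* was 13.8-fold lower, *SCD* 7.19-fold, *ACLY* 6.05-fold and *HMGCS1* 4.22-fold. These folds include A549 DMSO replicate 1. Scaled within A549, it lay below the other controls for *FADS1* (454 CPM) and *SCD* (1257 CPM) and above them for *HMGCS1* (36.9 CPM). All 3 LXR targets were higher in H1792, *ABCG1* 11.5-fold (17.1 ± 1.5 against 1.29 ± 0.674 CPM, edgeR adjusted p 1.93e-12), *MYLIP* 2.39-fold and *ABCA1* 1.80-fold. *SREBF1* was 2.90-fold lower in H1792 and *SREBF2* 1.18-fold higher (edgeR adjusted p 0.00673). The *SREBF2* call was lost without A549 DMSO replicate 1 or 3 or H1792 DMSO replicate 3 (edgeR adjusted p 0.0114 to 0.0195), with total counts as scaling (0.13, edgeR adjusted p 0.0932) and after GC correction (0.061, edgeR adjusted p 0.288). *FASN*, 1.35-fold higher in H1792, was at 0.099 (log2) after GC correction and did not pass (edgeR adjusted p 0.0867). *MVD*, 1.23-fold higher in H1792 (edgeR adjusted p 0.00801), lost its call in 7 of the 14 fits without 1 library. These were the fits without A549 AMG900 replicate 3, A549 DMSO replicate 2, 3 or 4, H1792 AMG900 replicate 2 or H1792 DMSO replicate 1 or 3, and the edgeR adjusted p of *MVD* then lay between 0.0101 and 0.0252. *NR1H3*, *PMVK*, *STARD4* and *ELOVL6* were not called, although *NR1H3* was without A549 DMSO replicate 1 or 2 (edgeR adjusted p 0.00236 and 0.00727), after GC correction (-0.52, edgeR adjusted p 0.000310) and by DESeq2 (adjusted p 0.000614). Markers of fibroblasts, summed above, differ between the lines too.

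**Figure D3:**
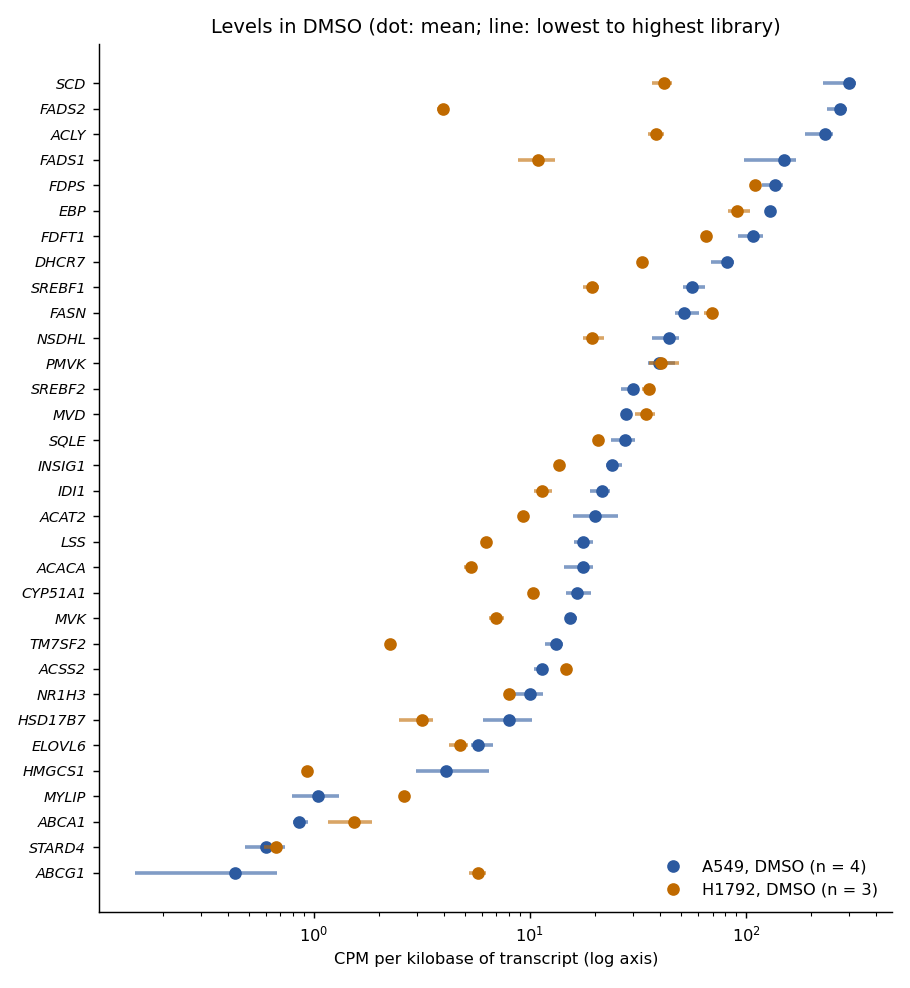
Level of each gene in DMSO as CPM per kilobase of transcript (x axis, log scale) in A549 (blue, n = 4) and H1792 (orange, n = 3), ordered by the A549 mean. Dots are means and lines run from the lowest to the highest library, both lines on a common scale. *FADS2*, *FADS1*, *SCD* and *ACLY* lie far lower in H1792, and *ABCG1* lies higher.

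Per kilobase of transcript, the order of levels also differed. In A549 with DMSO, *SCD* (299 ± 48.4), *FADS2* (273 ± 25.5), *ACLY* (233 ± 30.1) and *FADS1* (150.2 ± 34.8) led, all in CPM per kilobase (SD, n = 4), and the ranges of the first 3 overlapped one another. In H1792 with DMSO, *FDPS* (110.5 ± 3.61), *EBP* (91.0 ± 11.3) and *FASN* (69.3 ± 4.75) led (CPM per kilobase, SD, n = 3). The ranges of *FASN* and *FDFT1* overlapped, while those of *FDPS* and *EBP* did not. *ABCG1* was the lowest gene of the list in A549 with DMSO (0.434 CPM per kilobase), and *STARD4* the lowest in H1792 (0.667 CPM per kilobase).

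GC content of the transcripts moved with the response over all genes, and the 32 genes shared in it. Across the 32 genes, which span 34.4% (*STARD4*) to 65.5% (*MVD*) GC, Spearman's rho of the log2 fold change with GC content was 0.480 in A549 and 0.580 in H1792, beside 0.499 over 12768 genes and 0.481 over 14373 genes. These are descriptions across genes that share libraries. With each library's counts corrected for GC content, 16 genes were called in A549 (32.3% of all genes tested were), 7 up (14.5% of all) and 9 down (17.8% of all). In H1792, 19 were called (37.2% of all), 4 up (15.1% of all) and 15 down (22.1% of all). The changes of *ABCG1* (3.08 in A549), *ABCA1* (1.21 in A549, -1.26 in H1792), *TM7SF2* (1.27 and 1.02), *HMGCS1* (-0.76 and -0.61), *SQLE* (-0.52 and -0.41) and *ACLY* (-0.53 and -0.56) stayed called in the same direction. The part of GC content in each result was not tested beyond this correction.

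**Figure D4:**
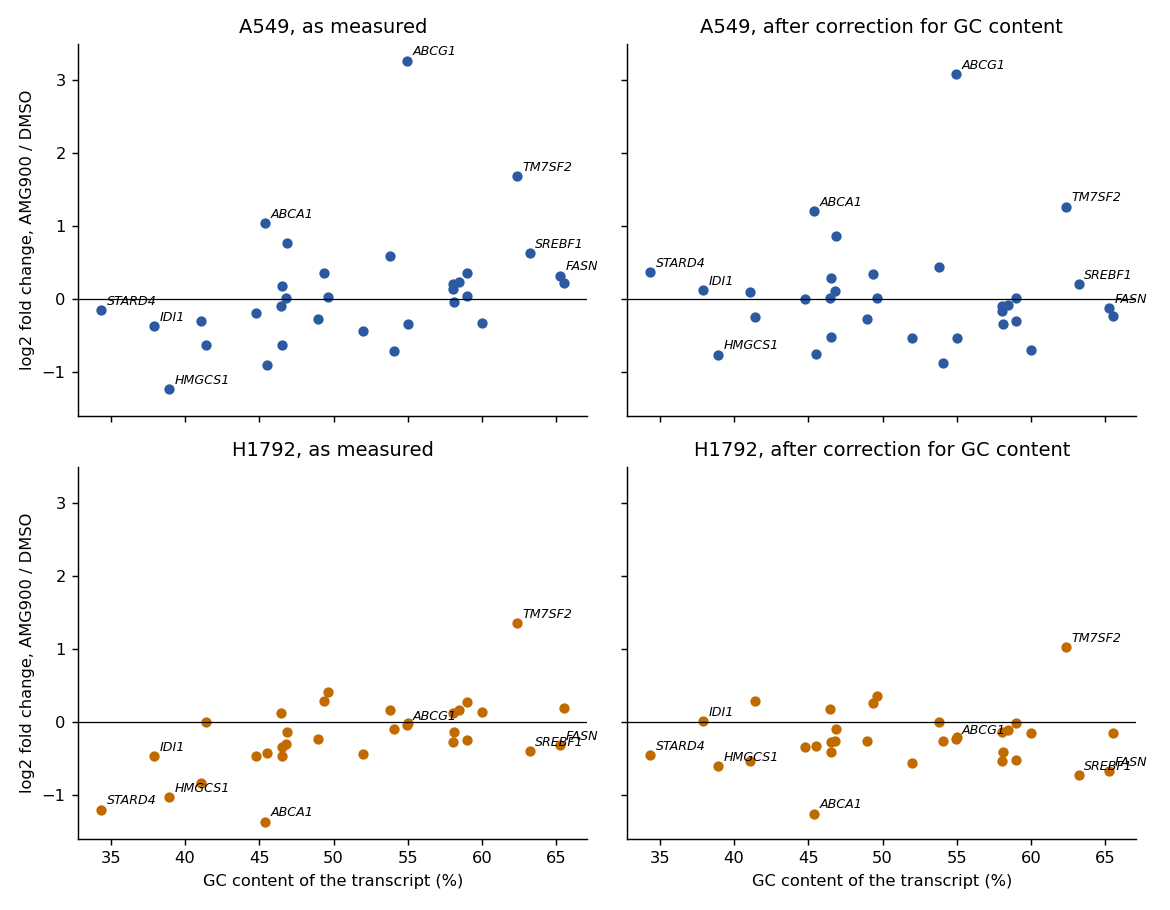
Log2 fold change of AMG900 over DMSO (y axis) against the GC content of the transcript in percent (x axis) for the 32 genes, in A549 (top) and H1792 (bottom), before (left) and after (right) correction of each library for GC content. *IDI1* moves to about 0 in H1792 and just above 0 in A549, while *ABCG1*, *ABCA1* and *TM7SF2* keep their place away from 0.

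Another 45 genes of the pathway were listed, also with earlier results of these data known. Of these 45, 42 were tested, *ABCG5*, *ABCG8* and *THRSP* being too low. In A549, 13 of the 42 were called (31.0%, against 35.0% of all genes tested), 4 up and 9 down (17.2% and 17.8% of all). In H1792, 27 were called (64.3%, against 35.1% of all), 8 up and 19 down (16.2% and 18.8% of all), and the median log2 fold change was -0.23, beside -0.01 in A549. The largest rises in A549 were of *SYVN1* (0.64), a ubiquitin ligase of the endoplasmic reticulum, and *NR1H2* (0.42), the second LXR gene. The largest falls in A549 were of *MBTPS2* (-1.10), the intramembrane protease that frees SREBPs, and *TMEM97* (-0.98), a sterol-responsive membrane protein. In H1792 the largest rises were of *MLXIPL* (1.46), a glucose-responsive factor of lipid genes, and *TECR* (0.79), a reductase of fatty acid elongation. The largest falls in H1792 were of *HSD17B12* (-1.37), another elongation reductase, and *INSIG2* (-1.29), the second INSIG gene. *NR1H2* in A549 was at 0.033 after GC correction, and *MBTPS2* in A549 (-0.66) and *INSIG2* in H1792 (-0.68) did not pass after it. The response differed between the lines for 9 of the 42 (21.4%, against 14.5% of all), higher in H1792 for *HACD3* and *TECR* and lower for 7, *HSD17B12* among them (-1.43 ± 0.210 SE, edgeR adjusted p 5.14e-05).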

How the data were processed

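RNA was sequenced from A549 and H1792 cells 48 h after DMSO or 0.1 µM AMG900. The deposited values are raw counts of reads per gene symbol in each library, made by the authors. The submitters' processing notes name STAR, HTSeq and hg19/GRCh37, with no versions, and strand use is not given in the sources used here. In the H1792 table, 28 entries bearing dates in place of symbols, 0.101% to 0.117% of a library's counts, were left out. The study's methods name DESeq2 at a false discovery rate of 0.01.

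Here each line was tested on its whole table with edgeR 4.0.16 in R 4.3.3 (TMM scaling, filterByExpr, quasi-likelihood F test) at a Benjamini-Hochberg rate of 0.01, DESeq2 1.42.0 being an alternative. The difference between lines and the DMSO comparison came from 1 fit over 14 libraries. An SE is the coefficient over the root of F. CPM is TMM-scaled within each line unless a common scale is named. Marker values, CPM per kilobase and the means that compare the lines in DMSO are on a common scale over 14 libraries. The biological coefficient of variation was 12.8% in A549 and 9.60% in H1792. Counting error is added for low genes, and p-values rest on the spread between libraries. GC content and length came from GENCODE transcripts on GRCh37, and GC correction used a spline with 5 degrees of freedom per library. Alternatives were DESeq2, its size factors, total counts as scaling, no filter, a minimum of 10 counts in every library, a replicate block, GC correction, a 2-fold minimum and each library left out. Scripts were tested on simulated data. Genes given in full were those called in both lines or for the difference, up to 12 by the adjusted p of the difference. For the second list of 45 genes, the 2 called genes with the largest rise and fall per line were named. The members and lists were chosen with earlier results of these data known.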

Additional observations from a re-analysis of the deposited data

Results flagged for a closer look

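In 6 of 64 groups of 4 A549 libraries (32 genes in 2 groups), 1 library stood apart from the other 3, where chance gives about 1 in 20. In 4 of the 6 it was DMSO replicate 1, with *DHCR7* at 192 CPM, *SCD* at 1257 CPM and *FADS1* at 454 CPM below the other controls and *ELOVL6* at 47.0 CPM above them. In the others, *IDI1* was low in AMG900 replicate 3 (39.8 CPM) and *ACLY* in AMG900 replicate 4 (732 CPM).

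The response to AMG900, as the H1792 log2 change minus that of A549, differed by edgeR's test for 11 genes. It was -3.37 for *ABCG1*, -2.50 for *ABCA1*, -1.11 for *SREBF1*, -0.99 for *HSD17B7*, -0.73 for *FASN*, -0.62 for *CYP51A1*, -0.60 for *SCD*, -0.56 for *SREBF2* and -0.49 for *ACSS2*. It was 0.53 for *EBP* and 0.55 for *ELOVL6*.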

How the results depend on the processing

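Adding a 2-fold minimum left 4 genes called in A549 (3 up, 1 down), 4 in H1792 (1 up, 3 down), 3 for the difference between lines and 16 for the lines in DMSO. Leaving out 1 library at a time gave 13 to 19 calls in A549, 11 to 16 in H1792, 7 to 13 for the difference and 26 to 28 in DMSO, with medians from -0.01 to 0.04 in A549 and -0.22 to -0.17 in H1792. Over all genes these fits gave 1845 to 2876 up and 1846 to 2978 down in A549, of 13232 to 13489 tested. In H1792 they gave 1382 to 3047 up and 1853 to 3656 down, of 15139 to 15413. For the difference they gave 602 to 1142 higher and 965 to 1918 lower, of 14644 to 15016. In DMSO they gave 4765 to 5286 higher and 4117 to 4903 lower, of as many. Scaling by total counts gave medians of -0.053 in A549 and -0.26 in H1792, beside -0.088 and -0.056 over all genes tested. GC correction, with or without the replicate block, gave -0.26 in H1792. The medians over all genes were then -0.022 without the block and -0.019 with it. Directions reversed only with GC correction, for *IDI1* in A549 (0.13, or 0.12 with the replicate block) and in H1792 (0.0078, or 0.019), *ELOVL6* in H1792 (0.28) and *MVD* between the lines in DMSO (-0.059, or -0.037). Of the single-gene values, 474 kept side and direction in A549, 413 in H1792, 659 for the difference and 674 in DMSO, while 16, 15, 32 and 18 lost and 19, 17, 12 and 9 gained a call (direction was counted only where a value was called). The cause was not tested.

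Same-numbered libraries did not deviate together over all genes (correlations -0.039 to 0.013 in A549 and -0.060 to 0.043 in H1792). With so few libraries a group, these values cannot show whether same-numbered libraries shared a culture or batch, which the labels do not say. With the replicate block, 7 genes rose and 7 fell in A549, 2 rose and 12 fell in H1792, 1 was higher and 7 lower for the difference, and 7 higher and 21 lower in DMSO. Over all genes the block gave 1923 up and 1984 down of 13174 in A549 and 2170 and 2618 of 15017 in H1792. For the difference it gave 604 higher and 984 lower of 14769, and in DMSO 4846 and 4484. Low counts limit *ABCG1*, *STARD4* and *MYLIP* in A549. Other scalings, filters or tools moved these calls. In A549, *IDI1* was lost with DESeq2 size factors, the 10-count minimum or the block, *MVK*, *CYP51A1* and *ACACA* were gained with total counts, and *FASN* and *FADS1* with other filters. In H1792, *NSDHL* was lost with total counts and *ACACA* gained with 3 settings. For the difference, *ACSS2*, *SCD*, *HSD17B7* and *ELOVL6* were lost and *FDPS* and *STARD4* gained, and in DMSO *SREBF2*, *MVD* and *ACSS2* were lost and *ELOVL6* and *NR1H3* gained, each with 1 or more settings. *ABCG1* could not be tested with a minimum of 10 counts in every library.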
